A study of Homo sapiens with 12 samples.

Results

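The replication-dependent histone genes supply the core histones H2A, H2B, H3 and H4 and the linker histone H1 that package newly made DNA. Under their symbols, 73 genes were listed among 25718 genes in ventral midbrain-patterned progenitors of H9 human embryonic stem cells. A gene counted as a member when its RefSeq symbol started with HIST1H, HIST2H, HIST3H or HIST4H, repeated rows of a transcript were dropped, and the transcript with the highest mean count was used in the 2 genes that had several, HIST1H2BD and HIST2H2BF. By class, 6 members were H1 genes, 18 were H2A, 20 were H2B, 14 were H3 and 15 were H4 genes. Of these, 3 are listed as pseudogenes or noncoding RNAs: HIST1H2APS1 under H2A, and HIST2H2BA and HIST2H2BC under H2B. By cluster, 56 carried HIST1 symbols, 13 HIST2, 3 HIST3 and 1 HIST4. Both groupings follow the symbol alone.

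H9, an established human embryonic stem cell line, had been transduced at a multiplicity of infection of 50 with a lentiviral vector for miR-10a-GFP or miR-10b-GFP that is expressed in the presence of doxycycline. Cells went through 14 days of neural induction and were patterned towards midbrain with CT0.8 and Shh at 200 ng/ml. The 12 samples formed 4 groups of 3 replicates: miR-10a with doxycycline, the same transduced cells without it, miR-10b with doxycycline, and its own uninduced cells. Doxycycline was present from day 11 to day 14 in the induced groups, and the comparison asks which mRNAs change shortly after miR-10 is switched on. All 12 samples carried a miR-10 vector, so doxycycline itself and miR-10 cannot be told apart here, and each vector had a single control group of the same cells. All came from 1 cell line, and nothing in the labels says whether replicates were separate differentiations, so that p-values measure the spread between these samples, which may be technical.

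Replication-dependent histone genes lie in clusters, have no introns in their main form, and are transcribed when DNA is copied in S phase. Their mRNAs are unusual in ending not in a poly(A) tail but in a short stem-loop, which the protein SLBP binds and which the U7 small nuclear ribonucleoprotein helps to cut; some of the genes also give polyadenylated mRNAs that run past the stem-loop. The libraries were made with poly(A) enrichment, so the values below are the counts that passed this step and not the whole pool of histone mRNA.

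Total counts ranged from 10545487 to 14165426 per sample, and every control sample was deeper than the doxycycline samples of its vector. A count of 0 allows up to 3 counts, or 0.212 to 0.284 CPM by sample, for counting error only, where CPM is the count scaled by the total of its sample. The induced miRNA genes were as labelled, with MIR10A at 724 ± 10.8 CPM (SD, n = 3) with doxycycline and 0.999 ± 0.363 without it in the miR-10a cells, and MIR10B at 2620 ± 67.5 against 3.55 ± 0.807 CPM in the miR-10b cells. Replicate 2 of the miR-10b doxycycline group stood apart from its replicates: the chi-square of counts over all tested genes, per degree of freedom, was 3.17 and 4.11 in its 2 pairs and 1.22 to 1.93 in the other 10 pairs, while over the tested histone genes it was 1.28 and 1.92 against 0.938 to 1.66. Of the progenitor markers, NES, VIM and SOX2 had means of 4730, 4540 and 1110 CPM, but the floor-plate and midbrain markers CORIN, FOXA2, LMX1A and OTX2 had 11.9, 7.67, 4.94 and 0.505 CPM and PAX6 0.0126 CPM. Of the pluripotency markers, DNMT3B had 1.22 CPM, POU5F1 0.0499 CPM, and NANOG was listed at 0. Genes with several transcripts in the files, as these pluripotency markers and PAX6 and OTX2 are, could be listed near 0 even where cycling cells use them (PCNA at 0.0805 CPM and MCM2 at 0), so that these low values do not show that a marker was lacking.

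Most members were close to the limit of detection. Of the 73 genes, 23 had a mean above 10 counts over the 12 samples and were tested, 40 had at least 1 count in some sample but a lower mean, and 10 were at 0 in all samples. The first tested gene above the minimum, HIST1H2BM, had a mean of 10.5 counts, and the first below it, HIST1H2BO, had 9.75. Only 4 members had a mean above 100 counts. The 10 genes at 0 were HIST1H2AA, HIST1H2BA, HIST1H2AD, HIST1H4F, HIST2H2AA3, HIST2H2AA4, HIST2H3A, HIST2H3C, HIST2H4A and HIST2H4B. Shared sequence bore on several of these, as described further on. HIST1H2BD had a mean of 20.9 counts for the transcript used and 0.167 for its other one, and HIST2H2BF had 0.0833. The limit given above for genes with several transcripts holds for both.

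**Figure D1:**
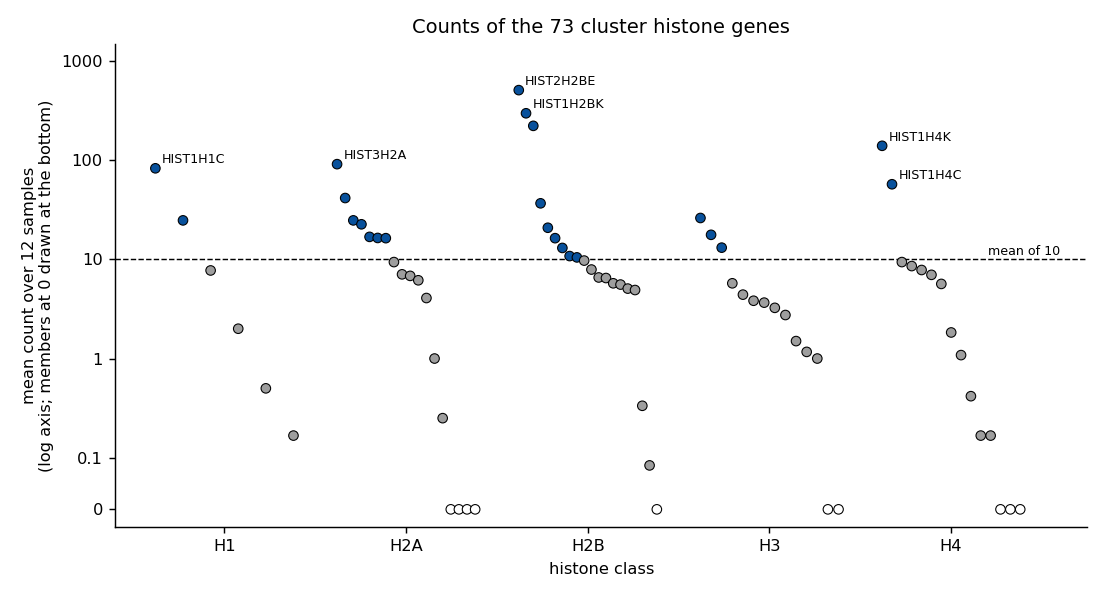
Mean count over the 12 samples (log axis) of each of the 73 histone genes, grouped by class and ordered by level. Filled blue points are the 23 genes above the dashed line at a mean of 10 counts, grey points are the 40 below it, and open points at the bottom are the 10 genes at 0; HIST2H2BE, with a mean of 513 counts, is the highest.

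The 3' ends of the genes carried the stem-loop of this class. The annotation (GENCODE 44 mapped to GRCh37, which has the coordinates of the hg19 build the authors used) held 67 of the 73 genes, of which 52 lay on chromosome 6 between positions 25726291 and 27861669, 14 on chromosome 1 and 1 on chromosome 12. The stem-loop was searched as the letters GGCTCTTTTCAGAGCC or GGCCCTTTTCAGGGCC, on the gene's strand, with up to 2 mismatches, within 100 bases after the stop codon. It was found in 64 of the 65 members that had an annotated stop codon, without a mismatch in 45, and started 23 to 68 bases after the stop codon with a median of 36. Over 1 transcript of each of 19697 protein-coding genes, 72 (0.366%) held it. Among the few carriers outside the clusters were H2AX, listed in the count files as H2AFX, and H2AJ. The sequences below are those of the members with the highest levels or with a change past the threshold, read from GRCh37; capitals and coordinates mark the 16 bases of the stem-loop.
HIST2H2BE, chr1:149857738-149857753, minus strand: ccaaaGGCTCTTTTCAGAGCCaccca
HIST1H2BK, chr6:27114145-27114160, minus strand: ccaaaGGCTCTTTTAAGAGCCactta
HIST1H2BH, chr6:26252283-26252298, plus strand: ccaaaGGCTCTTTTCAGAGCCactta
HIST3H2A, chr1:228645070-228645085, minus strand: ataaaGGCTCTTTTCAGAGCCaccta
HIST2H2AC, chr1:149858941-149858956, plus strand: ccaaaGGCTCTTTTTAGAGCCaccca
HIST1H2AG, chr6:27101294-27101309, plus strand: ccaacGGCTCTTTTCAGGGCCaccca
HIST1H4C, chr6:26104545-26104560, plus strand: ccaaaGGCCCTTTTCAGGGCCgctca
HIST1H1C, chr6:26055972-26055987, minus strand: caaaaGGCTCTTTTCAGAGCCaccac

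In 60 members the annotated gene model stopped within 12 bases past the stem-loop. The RefSeq model that was counted could be longer, as with HIST1H2BK below. Of the 4 members whose annotated model ran further, HIST2H2BE and HIST1H2BD were tested. Both of these models ended in a stretch with a polyadenylation signal. The single-exon model of HIST2H2BE, chr1:149856009-149858232, ran 1729 bases past the stem-loop. Its end is shown here with the signal in capitals (GRCh37, minus strand).
HIST2H2BE, model end: ttgttattAATAAAgttaccaattaa

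HIST2H2BE was also the most abundant member. It encodes a core H2B histone and had a mean of 41.8 CPM, or 18.8 CPM per kilobase of its RefSeq length. HIST1H2BK followed at 24.3 CPM (29.0 per kilobase), and HIST1H2BH at 18.1 CPM (42.5 per kilobase); per kilobase HIST1H2BH was thus the highest of these 3 H2B genes. Together these 3 took 54.4% of the counts of all members, scaled to depth and summed over the 12 samples. HIST1H4K had 11.4 CPM, HIST3H2A 7.47, HIST1H1C 6.74 and HIST1H4C 4.62 CPM. The H2B class held 62.9% of the summed CPM, H2A 13.9%, H4 12.5%, H1 6.2% and H3 4.43%. Of the 3 leading genes, HIST2H2BE had the long model above and HIST1H2BK a RefSeq length of 839 bases against 381 coding bases, while the RefSeq model of HIST1H2BH had 425 bases.

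Near-identical copies limited several of these values. Of all 50-base windows of a gene model, the length of a read here, the share found once in GRCh37 reached every window in 33 of 67 members and was under 50% in 13. It was 0 in 5 members, HIST2H2AA4, HIST2H3A, HIST2H3C, HIST2H4A and HIST2H4B, and all 5 were at 0 counts. HIST1H4K had 7.4% of its windows found once, and its coding sequence was identical to that of HIST1H4J over 309 of 309 bases, so its counts are uncertain. HIST2H2BA, a noncoding RNA whose RefSeq model of 515 bases differed from the annotated one of 296, had 2.43% and is uncertain too. HIST1H2BK had 42.8% over its shorter annotated model. Of the other genes past a threshold below, every window of HIST1H2BH, HIST1H1C and HIST1H4C occurred once, and the share was 98.9% in HIST3H2A, 97.1% in HIST1H2AG, 92% in HIST2H2BE and 76% in HIST2H2AC. HIST1H2BH shared 91.3% of 378 coding bases with HIST1H2BK and 88.6% with HIST2H2BE. Whether the counting used strand is not given in the sources used here. On the same strand, HIST1H2AM overlapped the annotated exons of HIST1H3J.

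**Figure D2:**
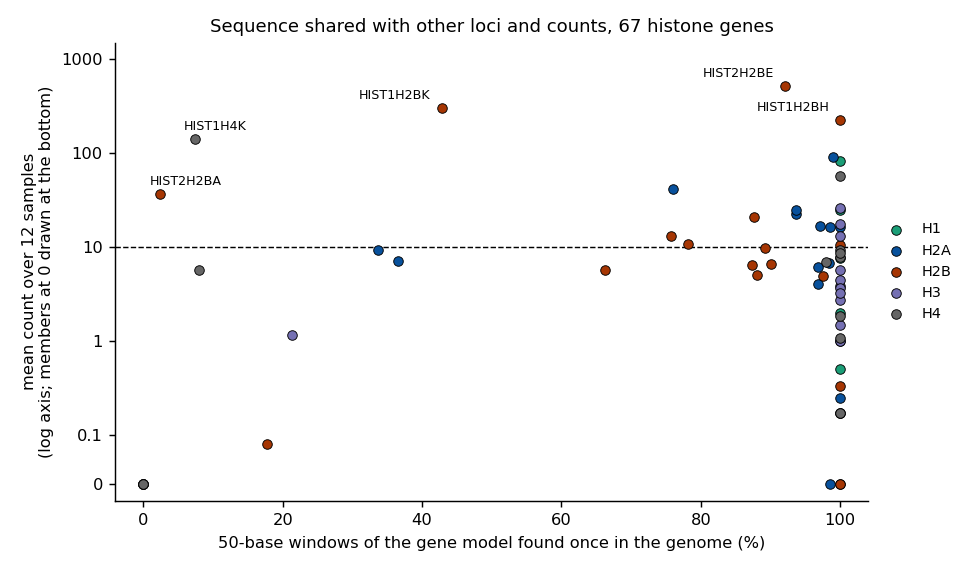
Share of 50-base windows of each gene model that occur once in GRCh37 (x axis, %) against the mean count over the 12 samples (y axis, log scale, genes at 0 drawn at the bottom), for 67 histone genes coloured by class. The 5 genes with no such window are all at 0 counts, and HIST1H4K and HIST2H2BA have counts with 7.4% and 2.43% of windows found once.

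Summed over the 73 genes, the level hardly differed between control and doxycycline samples of a vector. In the miR-10a cells it was 149, 149 and 153 CPM without and 149, 152 and 145 CPM with doxycycline. In the miR-10b cells the control samples had 156, 163 and 169 CPM and the doxycycline samples 159, 162 and 151 CPM. The samples of the 2 conditions overlapped with either vector. The balance between clusters differed more than the total. The 56 HIST1 genes summed to 107 ± 8.46 CPM (SD, n = 3) in uninduced and 88.8 ± 6.34 CPM in induced miR-10b cells, from 102 to 117 and from 81.7 to 93.6 CPM, with no overlap. The 13 HIST2 genes went the other way, with 45.8 to 50.8 CPM without and 57.4 to 59.1 CPM with doxycycline, and again no overlap. HIST1 genes made up 65.8% ± 3.05 (SD, n = 3) of the sum in uninduced and 56.5% ± 2.03 in induced miR-10b cells. In the miR-10a cells the HIST1 genes had 96.7 to 99.9 CPM in control and 90 to 96 CPM in doxycycline samples, also without overlap. Their share of the sum there was 65.8% ± 1.08 (SD, n = 3) without and 62.3% ± 1.82 with doxycycline. The HIST2 genes of the miR-10a cells had 42.6 to 45.7 CPM without and 45.7 to 50.6 CPM with doxycycline, ranges that met. Their share was 29.5% ± 0.769 and 32.4% ± 1.54.

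With miR-10b, the HIST2 difference rested largely on HIST2H2BE, while the HIST1 difference did not rest on HIST1H2BH alone. Without HIST2H2BE the other 12 HIST2 genes had 8.31 ± 1.75 CPM (SD, n = 3) in uninduced and 8.19 ± 1.1 in induced miR-10b cells. Without HIST1H2BH the other 55 HIST1 genes had 82.5, 83.1 and 94.5 CPM against 80.1, 80.4 and 69.7 CPM, still without overlap. With miR-10a these HIST1 genes had 76.6 to 80.4 CPM in control and 71.7 to 75.8 CPM in doxycycline samples, again without overlap. The 55 members whose annotated model ended within 12 bases of the stem-loop and whose RefSeq length exceeded the coding length by at most 200 bases, HIST1H2BH among them, had 86.1, 90.1 and 98.2 CPM in uninduced and 74.8, 78.5 and 73 CPM in induced miR-10b cells. With miR-10a they had 79.9, 80.0 and 82.5 CPM against 77.9, 76.2 and 74.4 CPM. All induced samples were below all control samples of their vector for these genes. The 15 H4 genes showed the same order, with 19.3 to 21.9 against 15.6 to 17.7 CPM for miR-10a and 19.3 to 23.6 against 18 to 18.6 CPM for miR-10b; without the uncertain HIST1H4K the miR-10a groups stayed apart, at 8.84 to 9.13 against 6.71 to 6.83 CPM, and the miR-10b groups overlapped, at 7.93 to 10.3 against 6.86 to 7.98 CPM. In bulk samples, fewer cells that make an mRNA and less of it per cell cannot be told apart.

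**Figure D3:**
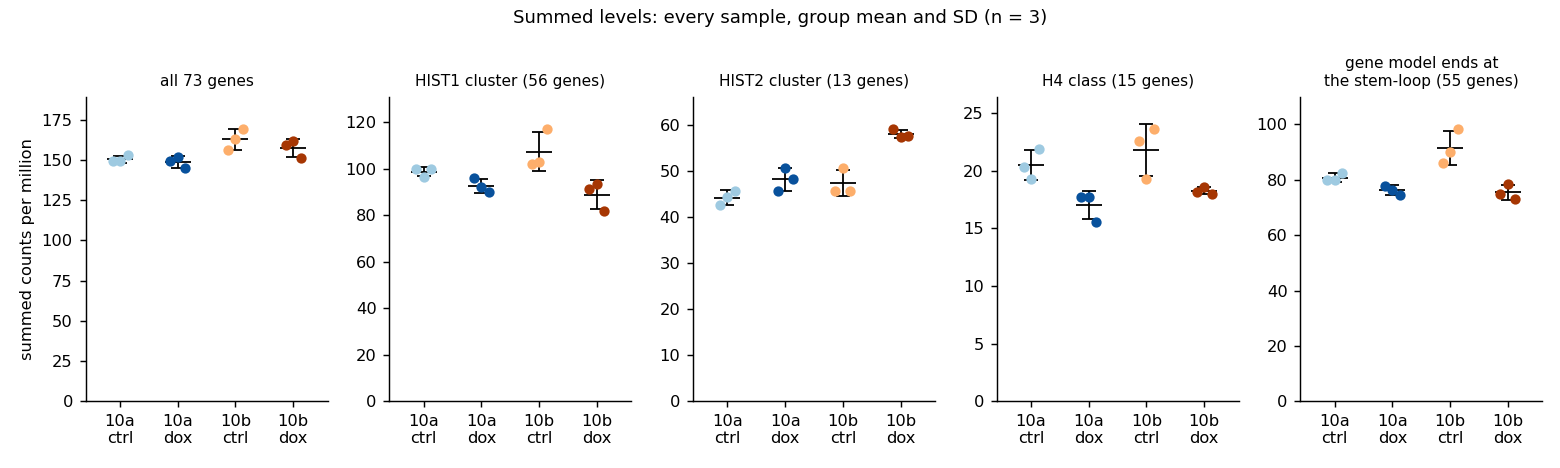
CPM summed over sets of histone genes in each sample, with group mean and SD (n = 3); ctrl, without doxycycline; dox, with doxycycline. The total differs little between control and doxycycline samples. The HIST1 sum is lower in the induced samples of either vector, and the HIST2 sum is higher in the induced miR-10b samples than in their controls.

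With miR-10b, 6 of the 23 tested histone genes passed the threshold (26.1%, where 15.3% of all 11451 tested genes did), 3 higher and 3 lower. Genes were tested by quasi-likelihood in edgeR, with p-values adjusted after Benjamini and Hochberg over all tested genes and a threshold of 0.05; log2 fold changes are doxycycline minus control. HIST2H2BE, HIST3H2A and HIST2H2BA rose, and HIST1H2BH, HIST2H2AC and HIST1H2AG fell. Over all tested genes, 8.18% rose and 7.15% fell, and of the histone genes 13% did each. The number called was 3 without induced replicate 2 or control replicate 2 and 2 without control replicate 3. The median log2 fold change was -0.28 over the 23 genes and 0.02 over all tested genes, and 16 of the 23 were below 0, or 69.6% against 44.6% of all genes. The same miR-10b control samples also enter the comparison of uninduced cells below.

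HIST1H2BH had the smallest p of the members. This core H2B gene had 19.1, 19.7 and 22.3 CPM in the uninduced miR-10b samples and 11.2, 13.2 and 12 CPM in the induced ones, from counts of 240, 266 and 297 and of 133, 154 and 144. The 3 induced samples lay well below the other 9 samples of the series. The log2 fold change was -0.75 (SE 0.09, adjusted p = 1.4e-07, edgeR), and the level 0.595 of that in the controls. Its call held under each of the 20 alternatives run, with adjusted p from 9.2e-13 to 9.5e-06, leaving out each replicate among them.

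HIST2H2BE rose with miR-10b. It had 39.2, 40.7 and 37.7 CPM without and 50.8, 48.1 and 50.6 CPM with doxycycline, and the groups did not overlap. The log2 fold change was 0.35 (SE 0.06, adjusted p = 3.9e-05, edgeR), or 1.27-fold, and the call held in each of 20 alternatives. HIST1H2BK, the remaining abundant H2B gene, had 23.1, 24.5 and 25.3 CPM against 23.7, 24.6 and 20.4 CPM, which overlap, with a log2 fold change of -0.09 and a 95% interval from -0.24 to 0.06. Thus the 3 most abundant H2B genes, with coding sequences alike over most of their bases, had a higher, a lower and an undetected difference in the same samples.

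**Figure D4:**
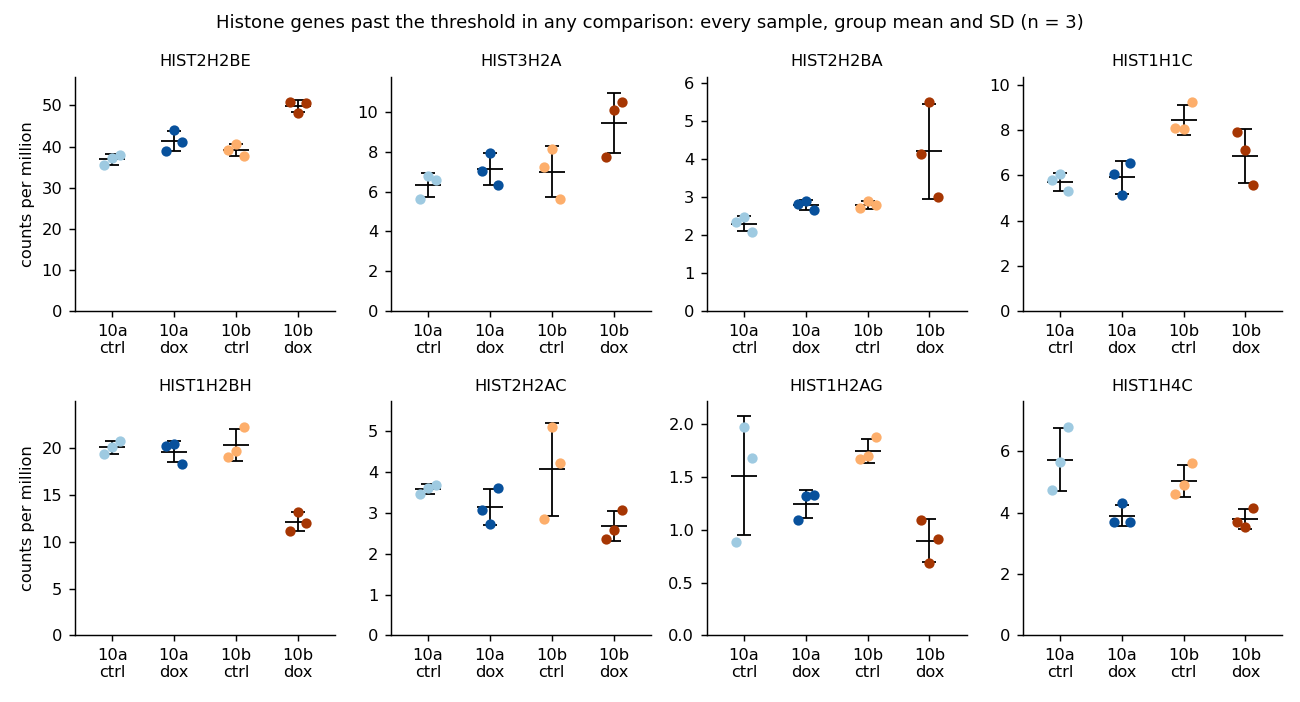
CPM of the 8 histone genes past the threshold in any comparison, in every sample, with group mean and SD (n = 3); ctrl, without doxycycline; dox, with doxycycline. HIST2H2BE is higher and HIST1H2BH lower in the 3 induced miR-10b samples than in all other samples, and HIST1H4C is lower in the induced samples of both vectors.

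HIST2H2BA, most of whose windows occur elsewhere in the genome, had 2.70, 2.89 and 2.78 CPM without and 4.12, 5.49 and 2.99 CPM with doxycycline in the miR-10b cells. Its samples did not overlap, but induced replicate 3 lay close to the controls. The log2 fold change of 0.58 (SE 0.19, adjusted p = 0.031, edgeR) lost its call without induced replicate 1 (0.60, adjusted p = 0.06) or 2 (0.35, adjusted p = 0.31) and without control replicate 1 (0.56, adjusted p = 0.079), 2 (0.61, adjusted p = 0.065) or 3 (0.58, adjusted p = 0.084). With only the miR-10b samples in the fit it was lost too (adjusted p = 0.058, edgeR).

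Among the H2A genes, which encode the partner of H2B in the nucleosome, HIST3H2A rose and HIST2H2AC and HIST1H2AG fell with miR-10b. HIST3H2A had 7.23, 8.15 and 5.63 CPM in control and 7.74, 10.1 and 10.5 CPM in doxycycline samples, with induced replicate 1 inside the control range. Its log2 fold change was 0.43 (SE 0.14, adjusted p = 0.026, edgeR), and the call was lost without induced replicate 2 (0.38, adjusted p = 0.085) or 3 (0.35, adjusted p = 0.12) or control replicate 3 (0.29, adjusted p = 0.21), and in DESeq2 (0.41, adjusted p = 0.083).

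HIST2H2AC had 2.86, 5.11 and 4.21 CPM without and 2.36, 2.57 and 3.08 CPM with doxycycline, and control replicate 1 lay inside the induced range. The log2 fold change was -0.61 (SE 0.20, adjusted p = 0.030, edgeR). It lost its call without induced replicate 1 (-0.53, adjusted p = 0.12) or 2 (-0.59, adjusted p = 0.072) and without control replicate 2 (-0.41, adjusted p = 0.24) or 3 (-0.59, adjusted p = 0.089), with only the miR-10b samples in the fit (adjusted p = 0.055) and with counts thinned to equal totals (adjusted p = 0.068). HIST1H2AG rested on 8 to 25 counts per miR-10b sample, with 1.67, 1.70 and 1.88 CPM in control and 1.09, 0.686 and 0.915 CPM in doxycycline samples. Its groups did not overlap, and the log2 fold change was -0.95 (SE 0.30, adjusted p = 0.025, edgeR). The call was lost without induced replicate 2 (-0.80, adjusted p = 0.11) or 3 (-0.97, adjusted p = 0.051) and without control replicate 2 (-0.97, adjusted p = 0.052) or 3 (-0.90, adjusted p = 0.084).

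No H1, H3 or H4 gene passed the threshold with miR-10b. Of these, the linker histone gene HIST1H1C had 8.10, 8.07 and 9.24 CPM without and 7.91, 7.12 and 5.57 CPM with doxycycline, a log2 fold change of -0.30 (SE 0.13, adjusted p = 0.12, edgeR) with no overlap. HIST1H3J, an H3 gene, had 2.54 to 2.63 CPM in control and 1.66 to 1.94 CPM in doxycycline samples (-0.52, adjusted p = 0.12, edgeR). HIST1H4K, the uncertain H4 gene, had 13.7, 11.4 and 13.3 against 11.3, 11.8 and 9.98 CPM, which overlap (-0.22, adjusted p = 0.20, edgeR). Over the 23 genes, induced and control samples did not overlap in 2 genes that were higher and 6 that were lower (8.7% and 26.1%), where 16.3% and 12.3% of all tested genes did not overlap in these directions. Of the H2B genes, 6 of 9 tested had a log2 fold change below 0, as had 4 of 7 H2A genes and 6 of the 7 genes of the other classes.

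With miR-10a, none of the 23 histone genes passed the threshold in edgeR, where 1.21% of all tested genes did (0.472% higher and 0.742% lower), and DESeq2 called none of the 4 members to which it gave an adjusted p, HIST1H4C not among them. At an unadjusted p under 0.05 there were 2. The first was HIST1H4C, a core H4 gene, with 4.74, 5.65 and 6.81 CPM in control and 3.71, 4.31 and 3.70 CPM in doxycycline samples, which do not overlap (log2 fold change -0.55, SE 0.16, adjusted p = 0.090, edgeR). The second was HIST2H2BE, with 35.5, 37.3 and 38 against 39, 44 and 41 CPM, again without overlap (0.16, SE 0.06, adjusted p = 0.25, edgeR). HIST1H2BH had 19.4, 20.1 and 20.8 CPM in control and 20.2, 20.4 and 18.3 CPM in doxycycline samples, and its log2 fold change was -0.03 with a 95% interval from -0.20 to 0.13. The samples did not overlap in 3 genes that were higher and 3 that were lower, or 13% each, against 10.5% and 7.75% of all tested genes. The median over the 23 genes was -0.035 (0.01 over all tested genes), and 13 were below 0, or 56.5% against 46.1%.

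**Figure D5:**
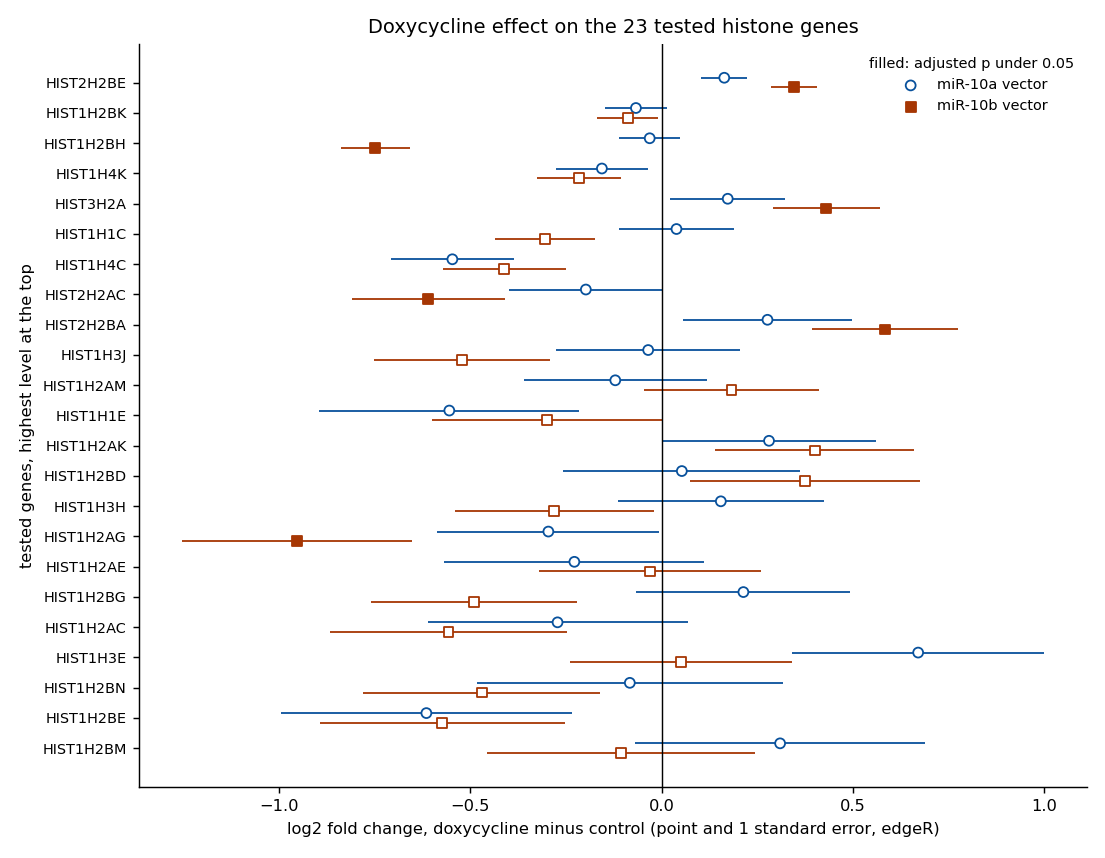
Log2 fold change, doxycycline minus control, of the 23 tested histone genes with 1 standard error (edgeR), ordered by level; circles, miR-10a; squares, miR-10b; filled, adjusted p under 0.05. Filled symbols are the 6 genes past the threshold with miR-10b, and HIST1H2BH is the gene whose 2 effects passed the test of their difference.

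The difference between the effects of the vectors was tested directly. One of the 23 genes, HIST1H2BH, passed the threshold (4.35%, against 1.96% of all tested genes, 1.38% lower), with a difference of -0.72 on the log2 scale (SE 0.12, adjusted p = 5.3e-04, edgeR), and it did so in all 19 alternatives, from -0.78 to -0.64. HIST2H2BE differed by 0.18 (SE 0.08, adjusted p = 0.33, edgeR), with a 95% interval from 0.02 to 0.35 that carries no adjustment. For HIST3H2A, HIST2H2AC, HIST2H2BA and HIST1H2AG the differences were 0.26, -0.41, 0.31 and -0.66, with adjusted p from 0.54 to 0.72. For these 4 genes the effects with miR-10a and miR-10b are therefore not shown to differ. Of the 23 differences 13 were below 0, or 56.5% against 48.2% of all tested genes.

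Averaged over both vectors, 7 of 23 genes passed the threshold (30.4%, against 13.9% of all tested genes), 3 higher and 4 lower, or 13% and 17.4% against 7.67% and 6.22%. With TMM factors the count was 5, with 1 higher and 4 lower, as HIST3H2A (0.29) and HIST2H2BA (0.42) each had an adjusted p of 0.051 in edgeR. The 7 were the 6 genes called with miR-10b and HIST1H4C. HIST1H4C had 4.61, 4.89 and 5.63 CPM without and 3.70, 3.52 and 4.16 CPM with doxycycline in the miR-10b cells, so that all 6 induced samples were below all control samples of their vector. Its average log2 fold change was -0.48 (SE 0.12, adjusted p = 3.5e-03, edgeR), called in each of 19 alternatives, and the 2 effects differed by 0.14 (SE 0.23). HIST2H2BE rose by 0.26 on average (SE 0.04, adjusted p = 3.5e-05, edgeR) and was higher in all 6 induced samples than in the controls of their vector. HIST1H2BH fell by 0.39 on average (SE 0.06, adjusted p = 1.9e-05, edgeR), though its 2 effects differed as above. The remaining 4 calls were close to the threshold, with adjusted p from 0.039 to 0.048. The count was 3 without miR-10a doxycycline replicate 1 or 2, miR-10a control replicate 3, miR-10b doxycycline replicate 2 or miR-10b control replicate 3, and 4 without miR-10a control replicate 1 or miR-10b control replicate 2.

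Uninduced cells of the 2 vectors, transduced separately, differed in the linker histone gene HIST1H1C. It encodes H1.2 and had 8.10, 8.07 and 9.24 CPM in the miR-10b controls and 5.79, 6.07 and 5.29 CPM in the miR-10a controls, with no overlap. The log2 fold change of miR-10b over miR-10a controls was 0.56 (SE 0.13, adjusted p = 2.3e-03, edgeR), or 1.48-fold. It was the 1 call among 23 genes (4.35%, against 14.1% of all tested genes, 7.41% higher and 6.72% lower), and it held in all 20 alternatives. HIST1H2BN, an H2B gene with 7 to 29 counts in these samples, had a log2 fold change of 0.89 (SE 0.33, adjusted p = 0.067, edgeR) and joined it without miR-10b doxycycline replicate 2 or miR-10b control replicate 1, when the count was 2. Of the 23 genes, 20 were above 0 and 3 below, or 13% below against 52.8% of all tested genes, with a median of 0.23 where that of all tested genes was -0.01. The doxycycline effect with miR-10b was measured against the same miR-10b controls, so its median of -0.28 and this one are not independent. The samples did not overlap in 4 genes that were higher and none that was lower, against 14.2% and 15.9% of all tested genes. The vectors and the separate cultures cannot be told apart here, and markers differed too, with the collagen gene COL3A1 at 35.1 CPM in the miR-10a and 135 CPM in the miR-10b controls.

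Among the 67 genes located in the annotation, 2 head-to-head pairs had both genes tested. In 10 pairs, each of an H2A and an H2B gene, the start sites faced away from each other with at most 500 bases between them. HIST2H2BE and HIST2H2AC, 235 bases apart, moved in opposite directions with miR-10b, as given above. HIST1H2AK and HIST1H2BN, 193 bases apart, had log2 fold changes of 0.40 and -0.47 with miR-10b, neither past the threshold. HIST1H2BG, a tested gene not located in the annotation, was left out of this search. Its promoter shares a stretch of DNA, read on the other strand, with that of HIST1H2AE, also tested. Those 2 genes had log2 fold changes of -0.49 and -0.03 with miR-10b, neither past the threshold. HIST1H2BK, at a mean of 299.5 counts, lay opposite HIST1H2AH with 4.08, so levels within a pair could differ widely.

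Promoters of the H2A and H2B genes shared an octamer motif, which POU-family transcription factors bind. The letters ATTTGCAT, on either strand, were in 26 of 65 member promoters (40.0%; RefSeq on GRCh38.p14, 250 bases before to 50 after the start) and in 1.77% of 35116 promoters of all genes. They were in 14 of 18 H2B and 11 of 16 H2A promoters, in 1 of 12 H3 promoters, and in none of 6 H1 and 13 H4 promoters. Neighbouring genes often shared a site, so the 26 promoters do not hold 26 separate stretches of DNA. The site of the H3 promoter is the same stretch as that of HIST1H2AD. CCAAT was in 84.6% of member promoters and 34.6% of all, and TATAAA in 67.7% and 11.5%. The sites of HIST2H2BE and HIST1H2BH, the H2B genes with the smallest p values, are shown because these genes moved in opposite directions; capitals mark the octamer, and coordinates are those of the whole run on GRCh38.p14.
HIST2H2BE, chr1:149886712-149886737, minus strand: ggagccctaATTTGCATaaggtggtt
HIST1H2BH, chr6:26251556-26251581, plus strand: taagcacctATTTGCATaaaagacct

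The octamer of HIST2H2BE starts 46 bases before its start site and is the same stretch of DNA as that of HIST2H2AC, read on the other strand. Of the genes called with miR-10b, HIST2H2BE, which rose, and HIST1H2BH, HIST2H2AC and HIST1H2AG, which fell, held these letters, HIST3H2A, which rose, did not, and HIST2H2BA was not searched.

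Sites for miR-10a were searched as well. The mature miR-10b sequence was missing from the reference used, so the search rests on miR-10a-5p alone. The mature miR-10a-5p (RefSeq, GRCh38.p14, chr17:48579904-48579926, minus strand) has the seed shown in capitals.
hsa-miR-10a-5p: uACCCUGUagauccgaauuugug
The letters CAGGGT, which pair with bases 2 to 7 of it, were absent between the stop codon and the end of the model in all 61 members searched, HIST1H2BH, HIST2H2AC, HIST1H2AG and HIST1H4C among them. Most of these stretches were short, as with 44 bases in HIST1H2BH and 47 in HIST2H2AC, while HIST2H2BE had 1801. No background was searched, so absence from a short stretch says little. It says nothing of sites elsewhere in these transcripts, or past the end of the annotated model. Whether mature miR-10b pairs with the same letters was not checked here.

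Of 11 tested genes of stem-loop binding and processing, 3 fell with miR-10b and none rose, where 7.15% of all tested genes fell: CSTF2, a subunit of the cleavage stimulation factor, by 0.25 on the log2 scale (adjusted p = 1.1e-03), CPSF2 by 0.14 (adjusted p = 7.1e-03) and CPSF3, the nuclease that cuts both histone and polyadenylated pre-mRNAs, by 0.10 (adjusted p = 0.035; edgeR). SLBP had 155 ± 3.59 CPM (SD, n = 3) without and 148 ± 3.59 with doxycycline (log2 fold change -0.07, adjusted p = 0.24, edgeR). Of 13 tested histone chaperones 3 fell and none rose, against the same 7.15%, NAP1L1 by 0.24 (adjusted p = 3.0e-03, edgeR) among them. With miR-10a none of these lists had a gene past the threshold.

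Histone genes outside the clusters, many of which make polyadenylated mRNA throughout the cell cycle, ranged from H1FOO at 0 to H3F3B at a mean of 1080 CPM. H3F3B, which encodes the replacement histone H3.3, had 1170 ± 12.8 CPM (SD, n = 3) in uninduced and 1000 ± 66.4 in induced miR-10b cells and fell by 0.23 on the log2 scale (adjusted p = 6.3e-06, edgeR). H3F3C fell by 0.26 (adjusted p = 2.2e-05, edgeR) and H2AFZ, the variant H2A.Z, by 0.24 (adjusted p = 8.5e-04, edgeR). H3F3A, by contrast, was listed at a mean of 0.00693 CPM. Shared sequence was not searched for this list, so whether H3F3B and H3F3C share reads is not known. H2AFX, which carries the histone stem-loop, rose by 0.15 with miR-10b (adjusted p = 6.4e-04) and by 0.12 with miR-10a (adjusted p = 0.036; edgeR). Of the 10 tested genes of this list, 1 rose and 3 fell with miR-10b, where 8.18% of all tested genes rose and 7.15% fell.

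Of 16 tested genes of S phase, when the clustered histone genes are transcribed, 7 fell with miR-10b and none rose, against 7.15% of all tested genes that fell. CDC6, which loads the replicative helicase, fell by 0.42 on the log2 scale (adjusted p = 8.4e-10), RRM1, a subunit of ribonucleotide reductase, by 0.30 (adjusted p = 4.7e-08), MCM6 by 0.15 (adjusted p = 9.9e-04) and CCNA2 by 0.15 (adjusted p = 1.9e-03; edgeR). Summed over the list, induced miR-10b samples had 2520 to 2640 CPM and their controls 2870 to 2940 CPM, and the miR-10a samples 2930 to 3010 and 2980 to 3100 CPM. The 5 genes of this list that could not be tested, PCNA and MCM2 among them, each had 2 or more transcripts in the files. The lists that follow are to be read against the 8.18% of all tested genes that rose and the 7.15% that fell with miR-10b. Of 8 tested G2 and mitosis genes 2 fell and PLK1 rose, and of 8 genes of cell cycle exit 4 rose and none fell. Of 5 tested neuronal genes 3 rose with miR-10b, MAP2 by 0.28 on the log2 scale (adjusted p = 2.2e-07, edgeR), of 10 progenitor genes 4 fell, and of 4 mesenchymal genes 2 fell, COL1A1 by 0.60 (adjusted p = 1.0e-08, edgeR). The summed mesenchymal list was 343 to 363 CPM in uninduced and 286 to 306 CPM in induced miR-10b cells, and the neuronal list 949 to 982 and 1060 to 1120 CPM. With miR-10a none of these lists had a gene past the threshold. The 1 tested pluripotency gene was not called, that list summing to 0.582 to 1.63 CPM, and no endoderm or mesoderm gene reached the minimum. Several of these lists changed in the same miR-10b samples in which some histone genes rose and others fell. Their part in the histone changes was not tested.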

How the data were processed

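RNA of 12 cultures was sequenced as 50-base single-end reads after poly(A) enrichment; the labels name the miRNeasy kit and the study's methods the RNeasy kit. The authors mapped reads to hg19, quantified them on RefSeq and deposited raw counts per transcript, 1 table per sample; STAR, featureCounts and Subread are named in the submitters' processing notes, without versions. Strand use and the treatment of shared reads are not given in the sources used here. Of 51799 rows per sample, 3698 repeated ones were dropped, leaving 48101 transcripts and 25718 genes; each gene was taken as its transcript of highest mean count.

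The quasi-likelihood test (glmQLFit, glmQLFTest) of edgeR 4.0.16, R 4.3.3, was run on the counts of 11451 genes with a mean above 10 counts, with total counts as library size, 4 group means in one fit and Benjamini-Hochberg adjustment over all of them (threshold 0.05). Simulated tables with 200 changed genes served to check the code. Intervals of 95% use the standard error and the normal distribution. No pair of samples held identical counts. Alternatives were TMM factors, DESeq2 1.42.0, no filter, a mean above 50 counts, the replicate number as a block, only the compared samples, counts summed over transcripts, counts thinned to the smallest total, and leaving out each replicate. Stem-loops, overlaps, head-to-head pairs and 50-base windows were computed on GRCh37 with GENCODE 44. The 6 members not found there (HIST1H2BF, HIST1H2BG, HIST1H4B, HIST1H4F, HIST2H2AA3, HIST2H2BC) were not analysed for these.

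Histone genes, lists and tests were chosen with earlier results of these data known. Named histone genes are the 12 with the highest mean CPM and those with an adjusted p under 0.05 in any comparison, at most 12 in each; from other lists at most 4 were named, by smallest p. HIST1H2BM, HIST1H2BO, HIST1H2BN, HIST1H2AK, HIST1H2AH, HIST1H4J, SLBP, PCNA, MCM2, NES, SOX2, FOXA2, LMX1A, OTX2, PAX6, NANOG, POU5F1 and H1FOO were named after their values were seen. So were HIST1H2AE, HIST1H2BG and H3F3A.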

Additional observations from a re-analysis of the deposited data

Results flagged for a closer look

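HIST1H2BH differed between the vectors: its doxycycline effect with miR-10b minus that with miR-10a was -0.72 on the log2 scale (SE 0.12, adjusted p = 5.3e-04, edgeR's quasi-likelihood test of the difference). It was lower in 3 of 3 induced miR-10b samples than in each of the other 9 samples, while induced and control samples of miR-10a overlapped. No other of the 23 tested histone genes passed this test.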

How the results depend on the processing

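Calls of HIST2H2BE and HIST1H2BH (miR-10b, average), HIST1H2BH (difference), HIST1H1C (uninduced cells) and HIST1H4C (average) held in each alternative that gave an adjusted p. The number of histone genes called with miR-10b, 6, was 2 with DESeq2 and 3 with a mean above 50 counts; the averaged number, 7, was 3 with DESeq2, 4 with a mean above 50 counts and 4 with counts thinned to equal totals; the number between uninduced cells, 1, was 2 with only the compared samples. The stricter minimum left 7 histone genes, and DESeq2 gave an adjusted p for 4 of the 23 with miR-10a, 6 with miR-10b, 7 for the average and 3 for the difference, which limits how many could be called. Leaving out 1 replicate gave 0 to 0 calls for miR-10a, 2 to 6 for miR-10b, 3 to 5 for the average, 1 to 1 for the difference and 1 to 2 for uninduced cells. The calls of HIST3H2A, HIST2H2AC, HIST2H2BA and HIST1H2AG were lost in 4 to 6 of the 18 to 20 alternatives with miR-10b and in 10 to 12 for the average; the cause was not tested. HIST1H4C with miR-10b was called after thinning (-0.56, adjusted p = 0.042, edgeR). Directions turned for the difference of HIST1H4C after thinning (-0.04) and for HIST1H1E with miR-10b, which ran from -0.59 to 0.28 as replicates were left out, with 0.28 without control replicate 3; neither was called. Without HIST2H2BE the summed level was 113 and 107 CPM in miR-10a control and doxycycline cells and 123 and 107 CPM in miR-10b cells, without overlap for either vector. TMM moved the median of all genes by less than 0.1, but ended the average calls of HIST3H2A and HIST2H2BA (adjusted p = 0.051 in edgeR for each), leaving 5 calls, 1 higher and 4 lower in place of 3 and 4. Same-numbered samples did not deviate together (correlation over genes from -0.0293 to 0.0126 in 6 pairs), so that they share only a number; a replicate block gave 0, 6, 7, 1 and 1 calls for miR-10a, miR-10b, the average, the difference and uninduced cells, the same counts as without it. Depth limits most members: 50 of 73 had a mean of 10 counts or less.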
